A study of Homo sapiens with 6 samples.

Results

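The response of OVCAR5 cells to imetelstat was read from 2 of the 6 expression arrays of the series, chosen by the cell line and the agent in the labels. OVCAR5 is an established line catalogued as epithelial ovarian cancer. The labels give 1 array of OVCAR5 cells treated with imetelstat and 1 of OVCAR5 cells treated with vehicle, both for 2 weeks and both grown in RPMI1640 with fetal bovine serum. The study searched for transcripts that respond to inhibition of telomerase, and it treated the colon cancer lines HCT116 and COLO205 in the same way, with 1 array per line and agent. The sources differ on the control: the labels name a vehicle, the cell culture methods a mismatch oligonucleotide, and a legend cells that were left untreated. No engineered genotype is given for any group, and the statement that experiments had biological replicates is not matched by a second array of any line and agent. Each OVCAR5 value below is therefore 1 array against 1 array, described by its size and with no p-value.

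Of 47231 probes, 17248 had a detection p-value below 0.01 on at least 1 of the 2 OVCAR5 arrays. With the brightest probe standing for each gene, 10538 of the 12187 genes detected anywhere in the series were detected in OVCAR5. Signals are given as log2 values after quantile normalization, and a ratio is the log2 signal with imetelstat minus that with vehicle. At the limit of 2-fold, 36 genes (0.342% of those detected) were lower with imetelstat and 27 (0.256%) were higher. The OVCAR5 arrays had mean signals of 461.6 with vehicle and 453.7 with imetelstat, and Pearson's r between them was 0.986 across these genes. The arrays labelled HCT116 and COLO205 resembled each other (r from 0.972 to 0.986 over 4 pairs) more than either resembled OVCAR5 (r from 0.855 to 0.863 over 8 pairs). Whether these 2 labels stand for separate lines was not tested.

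The ratios of all 10538 genes had a median of -0.01 and an SD of 0.26, and 5% of them lay below -0.39 and 5% above 0.39. All 63 genes past the limit were detected on both arrays. CLDN11 at -1.01 and GPX8 at 1.01 were just inside the limit, and CEMIP at -0.96 and CD58 at 0.99 were just outside.

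Telomerase copies a short stretch of its own RNA into the repeats at chromosome ends, and imetelstat, an antisense drug, occupies that stretch. NF-kB is a transcription factor family held in the cytoplasm by inhibitor proteins and released by cytokine signals, and its targets in epithelial cells include the neutrophil-attracting CXC chemokines, CCL20 and complement factor B. Sterol and fatty acid synthesis are controlled together by the SREBP factors, which leave the endoplasmic reticulum membrane when cell cholesterol is low. BMP ligands act through SMAD proteins on the ID genes, inhibitors of basic helix-loop-helix factors, and Wnt ligands act through beta-catenin on targets such as AXIN2.

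Low chemokine genes listed as NF-kB targets are shown first by their promoters, to show a stretch that CXCL1, CXCL2, CXCL5 and CXCL6 have in common. Those of CCL20 and CXCL8 are set beside them. PPBP, a chemokine gene described below, was also low but is not shown. The stretches below are from RefSeq on GRCh38.p14, 60 bases each, written 5′ to 3′ on the strand of the gene, with the 10 bases that match the NF-kB motif (GGG, any 5 bases, then CC) in capitals. CCL20 is from chr2:227813737-227813796 on the plus strand. The CXC genes lie together on chromosome 4, with CXCL1 from chr4:73869289-73869348, CXCL6 from chr4:73836563-73836622 and CXCL8 from chr4:73740427-73740486 on the plus strand. CXCL2 is from chr4:74099239-74099298 and CXCL5 from chr4:73998734-73998793, both on the minus strand.
CCL20: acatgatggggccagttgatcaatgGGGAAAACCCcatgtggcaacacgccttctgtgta
CXCL1: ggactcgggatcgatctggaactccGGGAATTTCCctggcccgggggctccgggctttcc
CXCL2: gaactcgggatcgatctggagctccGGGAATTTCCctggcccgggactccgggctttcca
CXCL5: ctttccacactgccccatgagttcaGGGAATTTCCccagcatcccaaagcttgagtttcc
CXCL6: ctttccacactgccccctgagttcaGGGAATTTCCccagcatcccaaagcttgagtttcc
CXCL8: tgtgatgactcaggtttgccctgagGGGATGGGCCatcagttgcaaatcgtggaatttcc

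The marked matches of CXCL1, CXCL2, CXCL5 and CXCL6 hold the same 10 letters, and those of CCL20 and CXCL8 hold others. The CXCL8 stretch ends, outside its match, in tggaatttcc, which differs from those 10 letters in the first only. The marked matches were chosen, and others lay on the strand of the gene 128 bases before the start of CXCL1, 24 before that of CXCL2 and 21 before that of CCL20. The first base of the marked match lies 80 bases before the annotated start of CCL20, 79 before that of CXCL1 and 78 before that of CXCL2. It lies 91 before that of CXCL5, 90 before that of CXCL6 and 117 before that of CXCL8. The motif is loose: searched on both strands, it is present in 58.7% of all 35116 promoter windows of 300 bases and in 72.1% of the windows of genes detected in OVCAR5, against 33 of 36 windows (91.7%) of the measured NF-kB targets. It is not particular to them: the share was 90.9% of the windows of the sterol genes, 84.0% of those of the fatty acid genes and 81.0% of those of the ID and BMP genes described below. A match is a description of the letters and not a site shown to be bound.

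**Figure D1:**
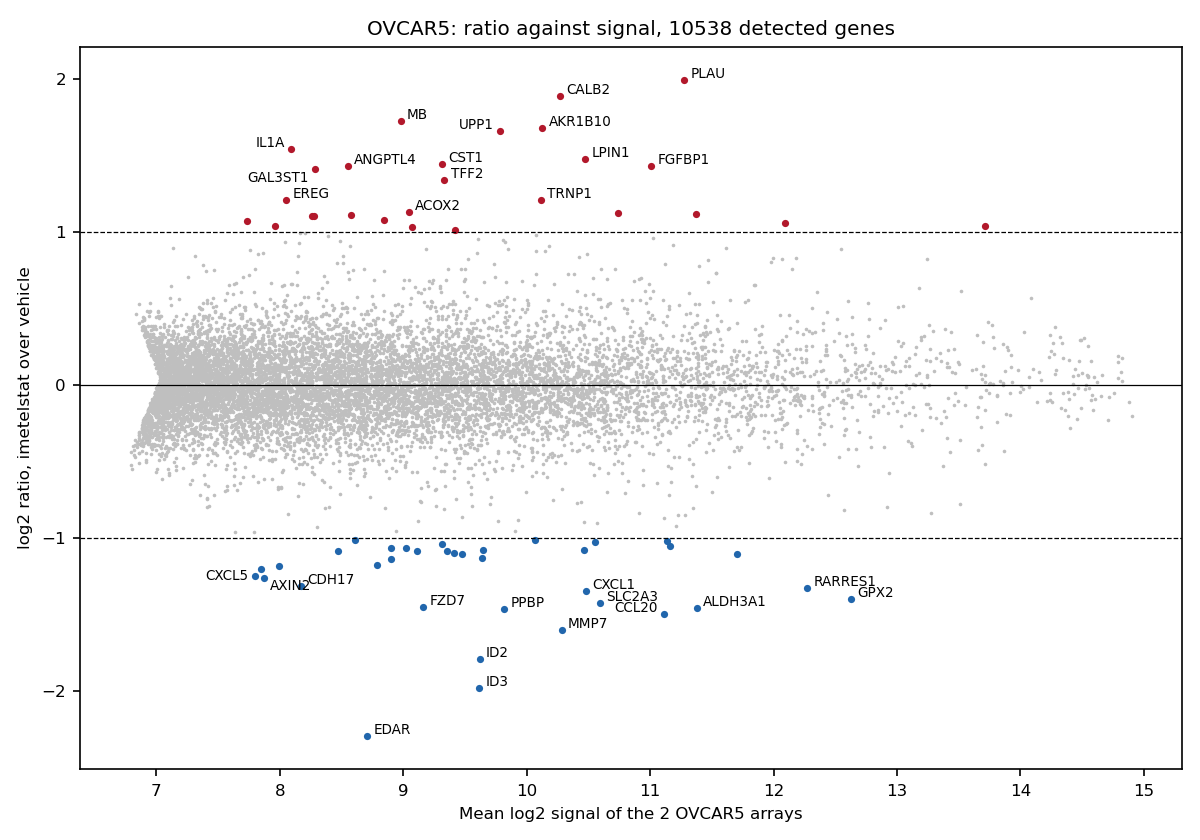
Log2 ratio of imetelstat over vehicle (y axis) against the mean log2 signal of the 2 OVCAR5 arrays (x axis), 1 point per detected gene. Blue points are the 36 genes at least 2-fold lower and red points the 27 at least 2-fold higher, dashed lines mark the 2-fold limit, and the 15 genes at each end carry names; EDAR at -2.30 and PLAU at 1.99 are the extremes.

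Chemokines stood among the lowest transcripts of OVCAR5. CCL20, the ligand of CCR6, had a log2 signal of 11.86 with vehicle and 10.36 with imetelstat, 2.82-fold lower and the 5th lowest ratio of all detected genes. CXCL1, a neutrophil chemokine that signals through CXCR2, went from 11.15 to 9.81, a ratio of -1.35. CXCL5, of the same receptor, went from 8.42 to 7.17, a ratio of -1.25, and its other probe was at -1.56. These 3 were joined beyond 2-fold by PPBP, the platelet chemokine of the same family, at 10.55 and 9.09, a ratio of -1.46. CXCL2 went from 10.20 to 9.07, a ratio of -1.13. CXCL6 was at -0.85, from 8.49 to 7.64. CXCL8, the gene that the study calls IL8, went from 13.22 to 12.65, a ratio of -0.57 that does not reach the limit, and its other probe went from 12.17 to 11.19, a ratio of -0.98. These 7 chemokines were each lower on the imetelstat array, by ratios from -0.57 to -1.50. In bulk RNA, fewer cells that express a gene and less of its RNA per cell cannot be told apart.

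Of 34 listed NF-kB targets, 30 were measured, of which 21 were lower, where 50.8% of all detected genes were lower, and 9 higher. Their median ratio was -0.28, against -0.01 over all genes. At 2-fold 6 of the 30 were lower, against 0.342% of all detected genes, and 2 were higher, against 0.256%. Besides the chemokines, PTGS2, the inducible cyclooxygenase, went from 9.38 to 8.20, a ratio of -1.18 with -0.64 by its other probe, and complement factor B (CFB) from 12.26 to 11.16, a ratio of -1.10. TNFAIP3, a feedback inhibitor of NF-kB, was at -0.50, ZC3H12A, an RNase that degrades inflammatory transcripts, at -0.54, and the subunit gene NFKB1 at -0.43. These 3 did not reach 1.5-fold, and they were picked after their values were seen. Further members were lower, with TNFAIP2 at -0.46 and NFKBIA at -0.32, and others were higher or near 0. The subunit gene NFKB2 was at 0.26, ICAM1 at 0.31 and LCN2 at 0.19, and BCL3 and TRAF1 were both at -0.03. The list was chosen with results on these arrays known, so its count describes the arrays and is no test.

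The highest members of the list were cytokine genes. IL1A, which encodes the alarmin interleukin 1 alpha, went from 7.32 to 8.86, 2.91-fold higher, and IL1B from 7.44 to 8.48, a ratio of 1.04. LTB, the membrane subunit of lymphotoxin, was at 0.63, from 8.89 to 9.52, and TNF at 0.46, from 7.29 to 7.75. IL6 was at 0.13. A wider list of interleukin 1 and cytokine genes had a median of 0.02 over 9 measured genes. Of these 5 were higher, against 49.1% of all detected genes. IL18 was at -0.12, and IL1RAP, a receptor subunit, at -0.14 by its brightest probe and 0.19 by another. On the vehicle array IL1A, IL1B, TNF and IL6 lay between 7.29 and 7.45, where the lowest detected log2 signal was 7.01.

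**Figure D2:**
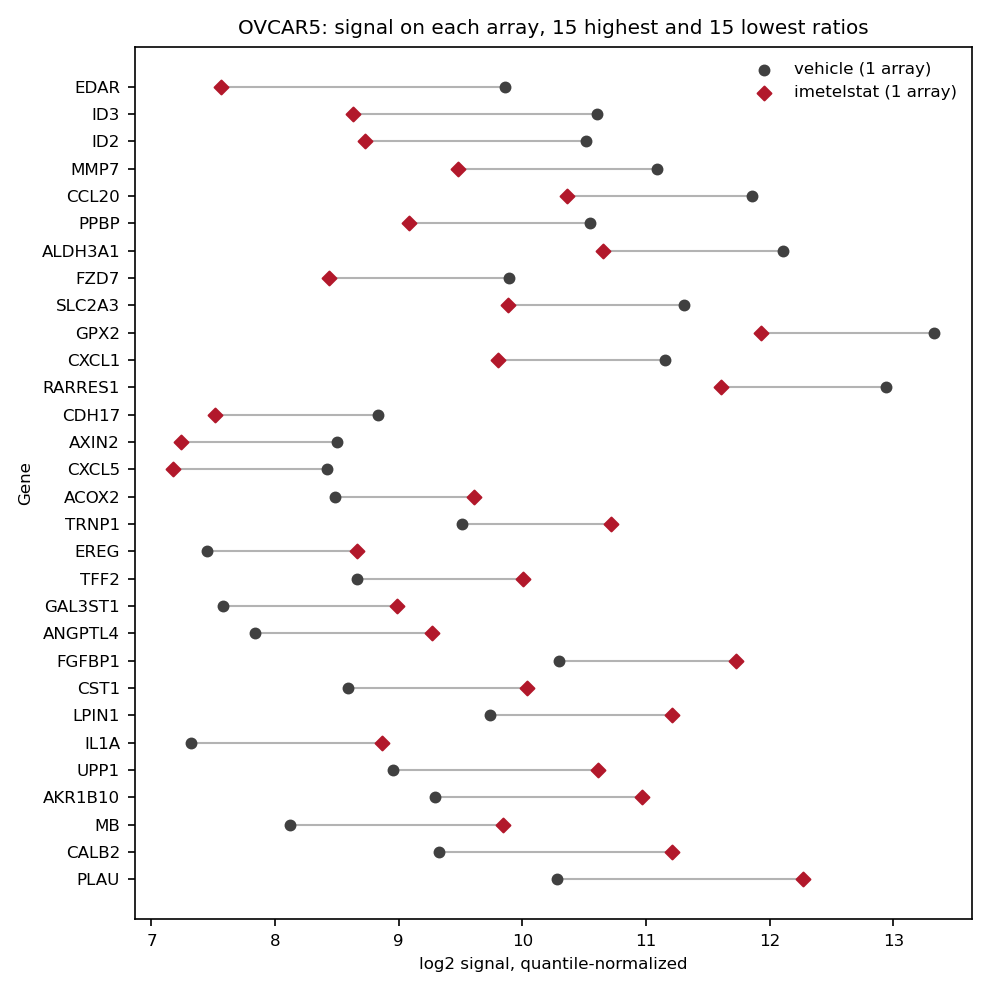
Log2 signal on the vehicle array (grey circles) and the imetelstat array (red diamonds) of OVCAR5 for the 15 genes with the highest and the 15 with the lowest ratios, 1 row per gene with its 2 values joined. The pairs are separated by ratios from -2.30 (EDAR) to 1.99 (PLAU), and each point is 1 array with no error bar.

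The lowest ratio of the experiment was that of EDAR, the ectodysplasin receptor of the tumor necrosis factor receptor family, with a log2 signal of 9.86 with vehicle and 7.56 with imetelstat, 4.91-fold lower. Transcripts of 2 ID genes followed. ID3 went from 10.61 to 8.63, a ratio of -1.98, and ID2 from 10.52 to 8.72, a ratio of -1.79, with -1.44 by its other probe. ID1 was lower by less, from 12.98 to 12.16, a ratio of -0.82. None of the 3 measured ID genes was higher.

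The ligands, receptors and SMADs around the ID genes differed less. Of 26 listed ID and BMP genes, 17 were measured, and the 12 lower and 5 higher members had a median of -0.22. Of all detected genes, 50.8% were lower. The ligand BMP4 was at -0.65, from 7.72 to 7.07, while BMP2 was detected with imetelstat only and was at least 1.05-fold higher. ATOH8, a BMP-induced transcription factor, was detected with vehicle only and was at least 1.58-fold lower. The receptors ACVR1 and BMPR2 were at 0.32 and -0.23, and the decoy receptor BAMBI at -0.24. Of the SMADs, the signal carriers SMAD4 and SMAD5 were at 0.19 and -0.31, and the inhibitory SMAD6 at -0.22. The inhibitory SMAD7 was detected with vehicle only and was at least 1.12-fold lower. The same held for SMAD9, another carrier, at least 1.08-fold lower. The Notch targets HES1 and HEY1 were at 0.15 and 0.06, and the ubiquitin ligase SMURF1 at -0.09. The BMP element GGCGCC, searched on both strands, was in 6 of 21 promoter windows of the list (28.6%), against 29.1% of the windows of genes detected in OVCAR5 and 19.2% of all windows.

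Of 25 listed Wnt targets, 16 were measured. Their median was -0.16, and 13 of them were lower, against 50.8% of all detected genes. Beyond 2-fold, 4 of them were lower, against 0.342% of all genes, and none higher, against 0.256%. They were EDAR, MMP7, FZD7 and AXIN2. MMP7, the epithelial metalloproteinase matrilysin, went from 11.08 to 9.48, 3.04-fold lower, and its other probe was at -1.65. AXIN2, a scaffold of the beta-catenin destruction complex, went from 8.50 to 7.24, a ratio of -1.26. FZD7, a Wnt receptor, went from 9.89 to 8.44 by its brightest probe, a ratio of -1.45, whereas its other detected probe was at -0.01. The members that were higher included the hyaluronan receptor CD44, at 0.46, and the factor LEF1, which was detected with imetelstat only and was at least 1.09-fold higher.

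The other transcripts among the 15 lowest belong to no single list. SLC2A3, the neuronal type glucose transporter GLUT3, went from 11.31 to 9.88, a ratio of -1.43. ALDH3A1, an aldehyde dehydrogenase, went from 12.10 to 10.65, a ratio of -1.46, and GPX2, the gastrointestinal glutathione peroxidase, from 13.33 to 11.93, a ratio of -1.40. RARRES1, a retinoid-induced gene, went from 12.94 to 11.61, and all 3 of its detected probes were low, at -1.33, -1.66 and -0.94. CDH17, the liver-intestine cadherin, went from 8.83 to 7.51, a ratio of -1.32. Past the limit but outside the 15 lowest, S100A9, a subunit of calprotectin, was at -1.05, from 11.69 to 10.63. The iron exporter SLC40A1, also outside them, was at -1.10, from 9.96 to 8.86. The lower genes not named elsewhere were PCSK6, C11orf71, SYBU, TNFSF10, NNMT, STEAP1, ZBED2, BDNF, FOXQ1 and GLIPR1, at ratios from -1.20 to -1.01.

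The highest ratio was that of PLAU, the urokinase-type plasminogen activator, with a log2 signal of 10.28 with vehicle and 12.27 with imetelstat, 3.98-fold higher. Its receptor PLAUR was at -0.14 by the brightest probe, from 9.91 to 9.77, and at 0.45 and 0.22 by 2 other probes, so that its direction depends on the probe. Of the 10 measured of 19 listed genes of the urokinase system, 6 were higher, against 49.1% of all detected genes. The median was 0.07. The integrin subunit ITGAV, a receptor partner, was at 0.59, from 10.24 to 10.84, and ITGB5 at 0.28. The inhibitors SERPINE2 and SERPINB5 were at 0.11 and -0.13. The plasminogen receptor chains S100A10 and ANXA2 were at 0.25 and -0.06, and the protease ST14 at 0.02. The protease MMP3 was detected with vehicle only and too near the floor for a bound. PLAU was the single member of this list beyond 2-fold.

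Several secreted proteins and enzymes were also among the 15 highest. FGFBP1, which releases fibroblast growth factors from matrix, went from 10.29 to 11.73, a ratio of 1.43, and EREG, the EGF receptor ligand epiregulin, from 7.45 to 8.66, a ratio of 1.21. ANGPTL4, an inhibitor of lipoprotein lipase, went from 7.84 to 9.27, a ratio of 1.43, with 0.16 by its other detected probe. CST1, a cystatin with close paralogues, was at 1.45, and the trefoil peptide TFF2 at 1.34, from 8.66 to 10.00, with its relative TFF1 at 0.80. UPP1, which splits uridine, went from 8.95 to 10.61, a ratio of 1.66. Past the limit but outside the 15 highest, NT5E, the ecto-nucleotidase CD73, went from 10.18 to 11.30, a ratio of 1.12. MB, myoglobin, went from 8.12 to 9.84, and both of its detected probes were high, at 1.72 and 1.40. CALB2, the calcium-binding calretinin, went from 9.32 to 11.21, a ratio of 1.89, whereas its other probe, near the floor of detection, was at 0.09. The remaining genes of the 15 highest were GAL3ST1, a sulfotransferase of glycolipids, at 1.41, the nuclear protein gene TRNP1 at 1.21, and ACOX2, an oxidase of branched fatty acids in peroxisomes, at 1.13. Among the others past the limit, the tetraspanin-like TM4SF1 went from 13.20 to 14.24 and the galectin LGALS1 from 11.57 to 12.62, and SHISA2, LPAR1, NRP1, PAPSS2, TMEM156 and AKR1B15 were at ratios from 1.07 to 1.12.

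Lipid synthesis genes were higher as a group in OVCAR5. Of 23 listed genes of sterol synthesis and uptake, 18 were measured and 17 of these were higher, where 49.1% of all detected genes were higher. The list had a median of 0.49. At 1.5-fold 6 of the 18 were higher, against 1.48% of all genes, and none lower, against 1.36%. In the order of the pathway, ACAT2, which condenses acetyl-CoA, went from 10.72 to 11.52, a ratio of 0.79, and HMGCS1, which makes HMG-CoA, from 11.65 to 12.48, a ratio of 0.82. The kinases MVK and PMVK were at 0.47 and -0.05. MVD, the decarboxylase that gives the isoprene unit, went from 8.55 to 9.59, a ratio of 1.03 and the one member beyond 2-fold. Of the enzymes that form and trim the sterol ring, LSS was at 0.52, CYP51A1 at 0.76, MSMO1 at 0.50, EBP at 0.59, SC5D at 0.93 and DHCR7 at 0.55. INSIG1, which holds the SREBP complex in the membrane, was at 0.44. Of 22 promoter windows of these genes, 1 held the sterol element TCACNCCAC on either strand (4.55%), against 1.13% of all windows. Some of these genes, and FASN and LIPG below, are printed in the study's diagram of genes shared between lines, which was made from the same arrays, so the lists are no independent evidence of direction.

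The fatty acid genes showed the same sign. Of 19 listed, 16 were measured and all 16 were higher with imetelstat, against 49.1% of all detected genes, with a median of 0.30. LPIN1, a phosphatidate phosphatase, went from 9.74 to 11.21, a ratio of 1.48, and FASN, fatty acid synthase, from 12.83 to 13.66, a ratio of 0.82. The endothelial-type lipase LIPG was at 0.84, the elongase ELOVL6 at 0.61, the malic enzyme ME1 at 0.60 and the factor SREBF1 at 0.48. The other detected probe of SREBF1 was at 0.03, and those of LIPG and ELOVL6 were at 0.50 and 0.80. Among 9 measured LXR targets, 8 were higher, against 49.1% of all detected genes, with a median of 0.21. None reached 1.5-fold, and the cholesterol exporters ABCA1 and ABCG1 were at 0.24 and 0.21. Another detected probe of ABCG1 was at -0.18, so that its direction depends on the probe.

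**Figure D3:**
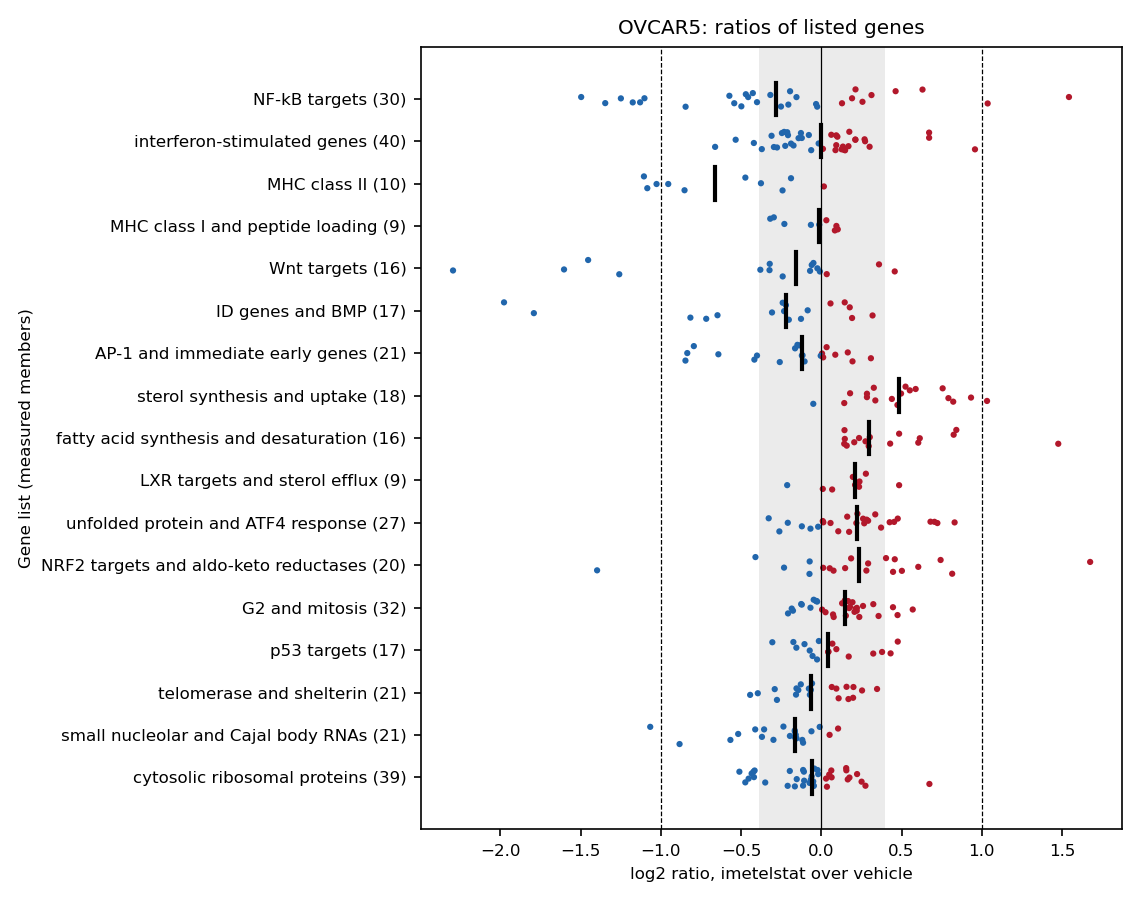
Log2 ratio of imetelstat over vehicle in OVCAR5 (x axis) for the measured members of 17 gene lists (rows, with the number measured), 1 point per gene, blue below 0 and red above. Black bars are list medians, from -0.66 for MHC class II to 0.49 for sterol synthesis, the grey band spans the 5th to 95th percentile of all detected genes (-0.39 to 0.39), and dashed lines mark 2-fold.

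Amino acid and redox stress genes were mostly on the higher side. The unfolded protein and ATF4 list had a median of 0.22 over 27 measured genes. Of these 21 were higher, where 49.1% of all detected genes were higher. None reached 2-fold, and 4 were at least 1.5-fold higher, against 1.48% of all genes. The larger ratios belonged to ATF4 targets: DDIT4, an inhibitor of mTORC1, was at 0.83, asparagine synthetase ASNS at 0.72, the pseudokinase TRIB3 at 0.71 and the serine synthesis enzyme PSAT1 at 0.68. Of 20 measured NRF2 targets and aldo-keto reductases, 15 were higher, against 49.1% of all detected genes, and the median was 0.23. At 1.5-fold 4 were higher, against 1.48% of all genes, and 1 was lower, against 1.36%. AKR1B10, an aldo-keto reductase, went from 9.29 to 10.97, a ratio of 1.68, thioredoxin reductase TXNRD1 from 11.06 to 11.88, a ratio of 0.82 with 0.86 by its other probe, and AKR1C2 from 8.47 to 9.22, a ratio of 0.74. Aldo-keto reductase genes have near-identical copies, so a probe may read more than 1 of them. GPX2, named above, stood on the other side of this list at -1.40, and NQO1, a standard NRF2 target, was at -0.07.

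Of 27 measured genes of glycolysis and the hypoxia response, 21 were higher, against 49.1% of all detected genes, with a median of 0.17. The glycolytic enzyme ALDOA was at 0.64 by its brightest probe and 0.15 by another, while the transporter SLC2A3 and PFKFB3, which makes the activator of phosphofructokinase, were at -1.43 and -0.63.

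Immediate early transcripts were lower in part. Of 21 measured, 14 were lower, against 50.8% of all detected genes, and the median was -0.12. FOSB and FOS, AP-1 subunits, were at -0.85 and -0.84, from 11.65 to 10.81 and from 13.69 to 12.86. The serum-induced factor EGR1 was at -0.79, from 13.32 to 12.53, and ZFP36, an RNA decay factor, at -0.64, from 11.38 to 10.73. These 4 were the members at least 1.5-fold lower, against 1.36% of all genes, and none was higher by that much, against 1.48%.

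Interferon-stimulated genes had no common direction in OVCAR5. Of 40 measured, 20 were higher and 20 lower, against 49.1% and 50.8% of all detected genes. ISG20, an exonuclease, was highest at 0.96, from 10.54 to 11.50, and the antiviral IFIT1 and IFIT2 were both at 0.67. IFITM1, which blocks virus entry, was lowest at -0.66, from 11.70 to 11.04. In HCT116 the same genes had a median of -1.94 and all 40 were lower, against 4692 of the 9635 OVCAR5 genes also detected there. On the arrays labelled COLO205 the median over 31 detected members was -0.39. Of these 28 were lower, against 4766 of 9383 genes.

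Of 10 measured MHC class II genes, a list made after the values were seen, 9 were lower, against 50.8% of all detected genes, and the median was -0.66. At 1.5-fold 5 were lower, against 1.36% of all genes. HLA-DPA1 was at -1.11, from 10.03 to 8.92, HLA-DMB, a chaperone of peptide loading, at -1.08, from 9.89 to 8.81, and HLA-DRB4 at -1.03, with -0.15 by its other detected probe. HLA-DRA was at -0.85, from 11.71 to 10.86, and the invariant chain CD74 at -0.47, -0.63 and -1.10 by 3 probes. HLA-DRB genes are near-identical, and the probes cannot tell which copy OVCAR5 carries. The 9 measured MHC class I and peptide loading genes, a list of the same kind, had a median of -0.01 and a lowest value of -0.32. The difference between the 2 lists was not tested.

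The enzyme that imetelstat targets and its telomere partners showed small ratios. TERC, the RNA with the template, was detected on the vehicle array only. Its log2 signal was 7.31 against 7.02 with imetelstat, at least 1.20-fold lower. Whether the labelling captured the mature form of TERC was not tested. TERT is not among the measured genes. The holoenzyme proteins DKC1, GAR1, NHP2 and NOP10, which bind and stabilise the RNA, were at -0.40, -0.28, -0.07 and 0.20, and WRAP53, which brings it to Cajal bodies, at 0.35. The assembly factors RUVBL1, RUVBL2 and NAF1 were at -0.44, 0.07 and -0.14, and PARN, which trims the RNA, at 0.09. Of shelterin, which caps telomeres, TERF1, TERF2 and TERF2IP were at 0.11, -0.16 and 0.20, and TINF2, ACD and POT1 at -0.07, -0.08 and 0.25. The CST subunits STN1 and TEN1 were at -0.13 and -0.06, and the helicase RTEL1 at -0.15. The inhibitor PINX1 was at 0.17 by its brightest probe and -0.19 by another, so that its direction depends on the probe. SMG6, detected with imetelstat only, was at least 1.06-fold higher. None of these 21 genes reached 1.5-fold, and the range ran from -0.44 to 0.35.

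The p53 pathway had a median of 0.04 over 17 measured targets, none at 1.5-fold, and CDKN1A, the cell cycle inhibitor p21, was at 0.07. Of 32 genes of G2 and mitosis, 22 were higher, against 49.1% of all detected genes. Their median was 0.15 and the highest value 0.57, for cyclin CCNB1. The 31 measured genes of DNA replication had a median of 0.00. Probe signals of small nucleolar and Cajal body RNAs were lower in 19 of 21 cases, against 50.8% of all detected genes. Their median was -0.17, with SCARNA13 at -1.07, from 9.56 to 8.49, and SNORA12 at -0.88, from 10.37 to 9.49. Whether the labelling captured the mature forms of these RNAs was not tested. Ribosomal protein genes had a median of -0.06 over 39 measured, from -0.51 for RPS23 to 0.67 for RPS28.

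The epithelial identity in the label was checked against markers. All 5 pan-epithelial markers were detected, and their summed linear signal was 46043 with vehicle and 48301 with imetelstat. Of 10 ovarian and Müllerian markers, 6 were detected, among them MUC16, MSLN and, with vehicle only, PAX8, while WT1, EMX2, ESR1 and SOX17 were not. Of 14 colon epithelial markers with a probe, 9 were detected, among them the intestinal factor CDX2, CDH17, KRT20 and CEACAM6, so that the markers do not place OVCAR5 in one tissue. The summed signal of the ovarian markers was 9336 and 7636, and that of the colon markers 19207 and 25945, vehicle first. The colon sum was carried by CEACAM6, without which it was 4908 and 4766. Of the 9 colon markers 5 were lower, against 50.8% of all detected genes, with a median ratio of -0.26. Within the colon list CEACAM6 was at 0.57 and KRT20 at 0.53 whereas CDX2 was at -0.93 and CDH17 at -1.32. Fibroblast markers were at or near the floor, with COL1A1 alone of 7 detected, PECAM1 alone of 4 endothelial markers, and LYZ and CD14 of 4 leukocyte markers with a probe, at -1.08 and 0.60, while PTPRC and CD3E were not detected. The part of these shifts in the chemokine, MHC class II and trefoil values was not tested.

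How far 2 probes of 1 gene gave the same ratio was examined next. Among 2638 genes with another detected probe, the difference between the probe that stands for the gene and the next brightest had an SD of 0.27, and Pearson's r across these genes was 0.47. Probes of 1 gene share the RNA and the array, so this is no replicate of the treatment. Of the 63 genes past 2-fold, 18 had another detected probe, and in all 18 it had the same sign. It reached 1.5-fold in 7 of them, ID2, MMP7, RARRES1, CXCL5, MB, PTGS2 and PCSK6, the last named after its values were seen. In the other 11 the other probe was below 1.5-fold, with the widest gaps in CALB2, FZD7, ANGPTL4 and HLA-DRB4, and 45 genes, EDAR, ID3, CCL20, CXCL1 and PLAU among them, had no other detected probe.

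**Figure D4:**
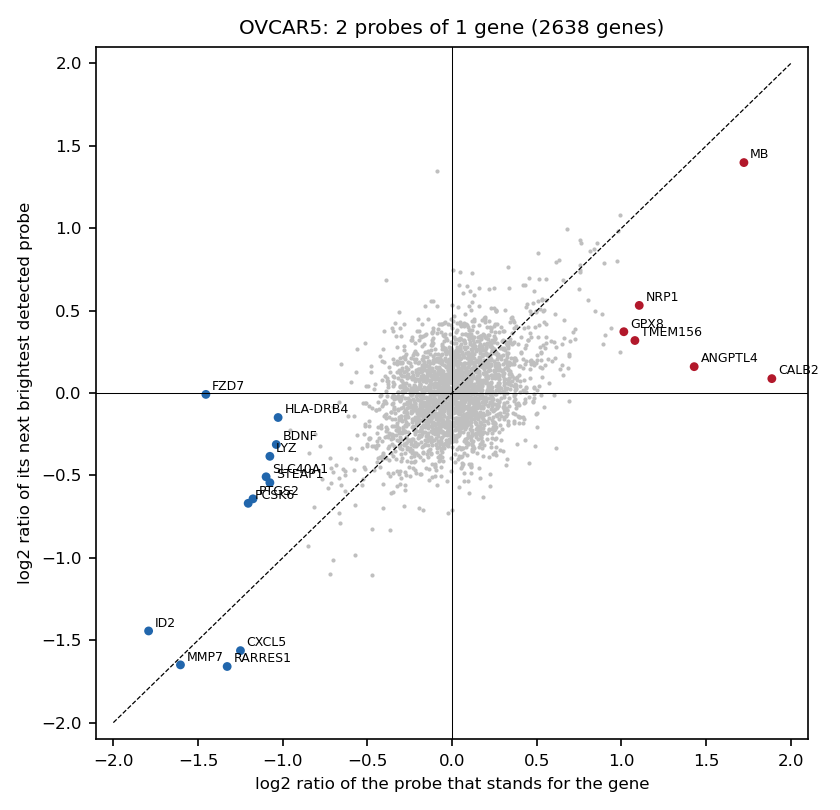
Log2 ratio in OVCAR5 of the next brightest detected probe (y axis) against that of the probe that stands for the gene (x axis), for 2638 genes with more than 1 detected probe. Coloured and named points are the 18 genes past 2-fold by the x axis, and the dashed line marks equal ratios; MB, ID2, MMP7, CXCL5 and RARRES1 lie near it, while CALB2 (1.89 and 0.09) and FZD7 (-1.45 and -0.01) lie near a ratio of 0 on the y axis.

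The OVCAR5 values were then set beside those of the other 2 lines. Of the 36 lower genes, CCL20, CXCL1 and CFB were also low in HCT116, at -1.33, -1.40 and -1.55. On the arrays labelled COLO205 they were near 0, at -0.05, -0.18 and -0.12. CCL20 was not detected on those arrays, so its value there is not a measured ratio. In HCT116 CCL20 went from 8.27 to 6.94, below the lowest detected OVCAR5 signal of 7.01, so the size of that fall is uncertain. CXCL5, MMP7, EDAR, ID2 and ID3 lay between -0.30 and 0.59 in both lines. EDAR and CXCL5 were detected in neither, and MMP7 was near the floor in HCT116 and not detected on the arrays labelled COLO205. ID2 was at 0.59 in HCT116 and 0.44 on the arrays labelled COLO205. Of the highest genes PLAU was at -0.74 and -0.65, CALB2 at -0.13 and -0.57, and UPP1 at -1.03 and 0.07.

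**Figure D5:**
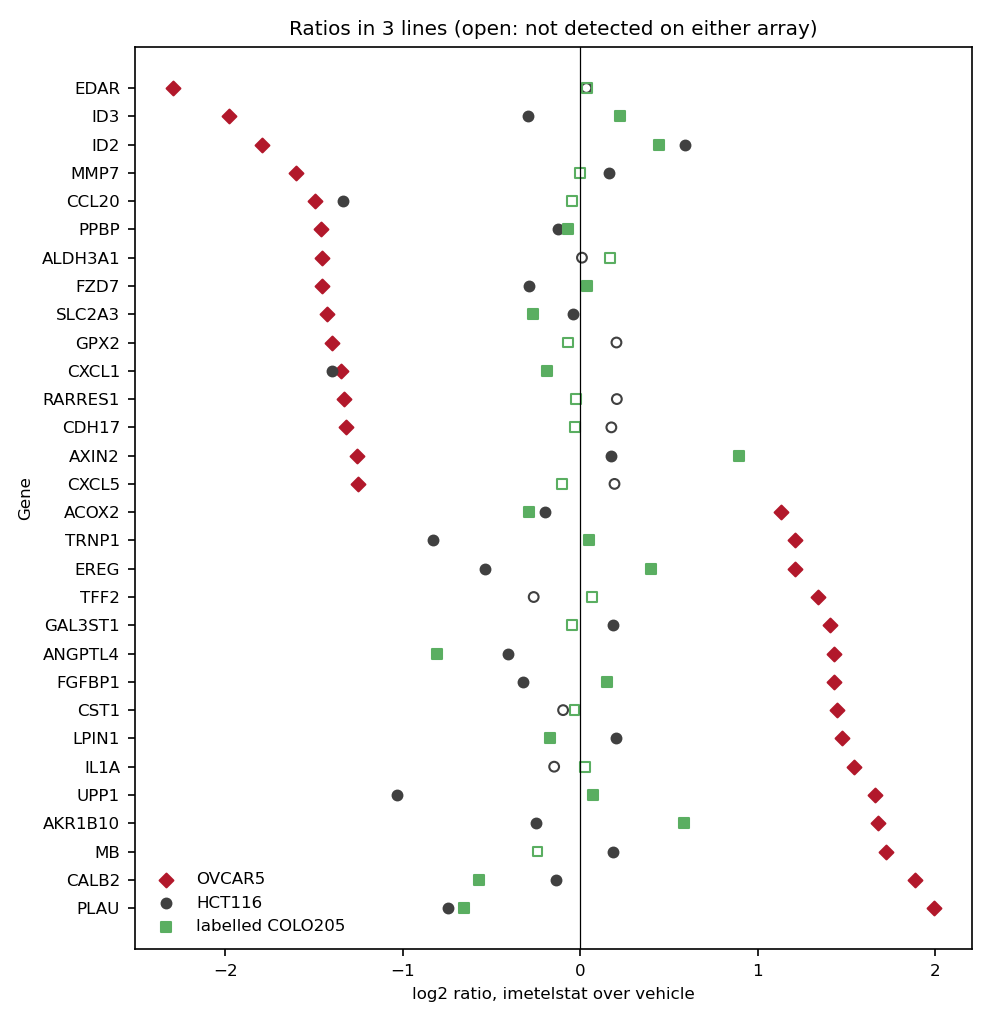
Log2 ratio of imetelstat over vehicle (x axis) in OVCAR5 (red diamonds), HCT116 (grey circles) and the arrays labelled COLO205 (green squares) for the 15 lowest and 15 highest genes of OVCAR5 (rows). Open symbols are genes detected on neither array of that line, and CCL20 and CXCL1 are the rows where an HCT116 circle lies beside the OVCAR5 diamond.

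The difference between the OVCAR5 ratio and the mean of the other 2 ratios was tested over 12187 genes with limma and Benjamini-Hochberg adjustment. The spread in this test is that between HCT116 and COLO205, with 1 residual degree of freedom, and not that of repeated OVCAR5 cultures. Whether these labels stand for separate lines was not tested, so it may not be a spread between lines. At an adjusted p below 0.05, 5 genes (0.041%) were lower in OVCAR5 than in the other lines and 8 (0.0656%) higher, and 467 genes (3.83%) had an unadjusted p below 0.05. EDAR, at a difference of -2.33, and IL1A, at 1.60, were detected in neither other line and entered the test through OVCAR5 alone, so the test of these 2 does not rest on a measured ratio in the other lines. The other lower genes were ID2 at -2.31 (SE 0.30, limma adjusted p = 0.00108), ID3 at -1.94, AXIN2 at -1.79 and MMP7 at -1.68. PLAU had a difference of 2.69 (SE 0.30, limma adjusted p = 0.000287), CALB2 of 2.24, UPP1 of 2.14, ANGPTL4 of 2.04 and MB of 1.75. MMP7 and MB were not detected on the arrays labelled COLO205. The remaining 2, IFIT1 at 2.92 and IFI6 at 1.78, were genes whose means in the other lines were -2.25 and -2.09, against 0.67 and -0.31 in OVCAR5, where the other probe of IFI6 was at 0.18. The calls depend on the setting: with no scaling, with normexp background correction or with undetected genes included 0 genes passed, with 213, 473 and 718 at an unadjusted p below 0.05, and with scaling to a common median PLAU alone did.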

How the data were processed

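Total RNA was labelled with the Ambion MessageAmp kit and hybridised to Illumina HumanHT-12 V4.0 BeadChips. The deposited intensities are linear bead averages from GenomeStudio, which the authors had neither normalized nor background-subtracted, and the deposited detection p-values set each probe against negative control beads. The authors' processed intensities, quantile-normalized with lumi, served as an alternative.

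Signals of all 6 arrays were taken to log2 and quantile-normalized with limma 3.58.1 in R 4.3.3. Platform annotation gave 1 symbol for 30113 of 47231 probes, several for 8 and none for 17110, and 30074 symbols were updated by gene identifier. Of the probes detected in OVCAR5, 3427 had no single symbol, of which 3 were at least 2-fold lower and 5 higher. The brightest detected probe over the 6 arrays stood for a gene. A gene detected on 1 OVCAR5 array was bounded by the lowest detected signal of the other. Precision is limited by the number of arrays, and 500 genes of like signal had ratios scattered by 0.16 to 0.30 (scaled median absolute deviation), which describes the arrays and is no replicate error.

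Named genes were the 15 highest and 15 lowest ratios, list members at 1.5-fold or more, up to 4 members a list, all measured members of the telomerase, ID and urokinase lists, and genes in the study's text or diagram. Others were named after their values were seen: the MHC genes, ABCG1, IL18, CD44, LEF1, MVK, PMVK, NQO1 and KRT7. So were the NF-kB list members NFKB1, NFKB2, NFKBIA, TNFAIP2, TNFAIP3, ZC3H12A, ICAM1, LCN2, BCL3 and TRAF1. The genes at the edge of the limit and the remaining genes past it were also of this kind. The members and 43 lists were chosen with earlier results of these data known, and 2 lists were added after their values were seen. Differences between lines were tested with limma's lmFit and eBayes with the line as a block. On simulated data the fit recovered the sizes of known differences on average, but with 1 residual degree of freedom it called fewer of those of 2-fold than it missed, and the share of false calls was above the nominal level. Python 3.11.15 did the rest. Promoter windows of 300 bases, from RefSeq on GRCh38.p14, were searched for motifs. Alternatives were another background correction, scaling, source of values, detection filter, probe choice, offset and limit.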

Additional observations from a re-analysis of the deposited data

Results flagged for a closer look

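For the following genes limma's test of the OVCAR5 ratio against the mean ratio of HCT116 and the arrays labelled COLO205 passed the threshold, which marked them for a closer look. The OVCAR5 arm is 1 ratio with no replicate, the spread is that between the other 2 ratios, and under 3 alternatives no gene passed. EDAR was lower by a difference of -2.33, ID2 by -2.31, ID3 by -1.94 (limma adjusted p = 0.0106), AXIN2 by -1.79 (limma adjusted p = 0.030) and MMP7 by -1.68 (limma adjusted p = 0.0228). IL1A was higher by 1.60, MB by 1.75, IFI6 by 1.78, ANGPTL4 by 2.04, UPP1 by 2.14, CALB2 by 2.24, PLAU by 2.69 and IFIT1 by 2.92, at limma adjusted p from 0.000287 (PLAU) to 0.0354 (IL1A). For these 13 genes the highest limma adjusted p over the alternatives of the test lay between 0.57 for PLAU and 1.00. EDAR and IL1A were detected in neither other line and entered the test through OVCAR5 alone. The test of these 2 therefore does not rest on a measured ratio in the other lines. MMP7 was not detected on the arrays labelled COLO205 and was near the floor in HCT116.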

How the results depend on the processing

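All 63 genes past 2-fold kept their sign under each of 10 alternatives of background, scaling, source, filter, probe and offset. They were chosen by the size of their ratio on the same arrays, so a kept sign is no independent support. With the mean of probes 28 genes were at least 2-fold lower and 22 higher, and with an offset of 32 there were 31 and 22. The counts of lower and higher genes were 36 and 27, and stayed within 1.5 times of this except for normexp background correction (171 and 126), a limit of 1.5-fold (143 and 156), a limit of 3-fold (4 and 5), and genes with another probe also at 1.5-fold the same way, an alternative chosen after seeing the data (6 and 1). The 13 genes whose OVCAR5 ratio differed from the other lines became 0 with normexp, 0 with no scaling, 1 with a common median, 0 with undetected genes included, 49 with an intensity trend in eBayes and 5 with the mean of probes. The causes were not tested. Leaving out either other line leaves no residual degree of freedom and so no test. Of 450 list medians under alternatives 20 changed sign, all of lists whose median was between -0.05 and 0.17. With the mean of probes the median of the carcinoembryonic antigen, mucin and trefoil list was -0.00, and CALB2 was at 0.99, UPP1 at 0.79 and FZD7 at -0.73. No paired analysis was possible because OVCAR5 has 1 array per agent and the labels carry no replicate number, while the line itself was the block in the test across lines.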

Other observations

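Keratins and carcinoembryonic antigens of OVCAR5 differed in direction within their families. Of 11 measured keratins 7 were higher, against 49.1% of all detected genes, and the median was 0.14. KRT23, an acidic keratin, was at -0.90, from 10.91 to 10.01, and KRT13, of stratified mucosa, at -0.54, while KRT7 of simple epithelia was at 0.51 and KRT20 at 0.53. CEACAM7 was detected with vehicle only, at 7.78 against 7.04, and was at least 1.66-fold lower, and CEACAM5 was at -0.56, while CEACAM6 was at 0.57, from 13.80 to 14.37. These genes are close paralogues, so a probe may read more than 1 of them.

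Of 14 measured heat shock chaperone genes 8 were lower, against 50.8% of all detected genes. The constitutive chaperone HSPA8 had the lowest value, -0.78, from 13.90 to 13.12. Proteasome subunits, nuclear genes of oxidative phosphorylation and apoptosis regulators had medians of -0.00, 0.00 and -0.00 over 30, 32 and 20 measured genes, and none of their members reached 1.5-fold. Among 11 measured genes of the EGF receptor family and its ligands, EREG at 1.21 and the receptor ERBB3 at -0.58 lay at the ends, and ERBB3 was at -0.14 by its next probe.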
